A study of Drosophila melanogaster with 30 samples.

Results

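The distal part of chromosome arm 3R was analyzed here as all 300-bp bins on 3R (dm3) with a start above 14 Mb. These are 46349 bins from 14000101 to 27904800, a span of 13.9 Mb, out of 464488 bins in the whole series when each chromosome is counted up to its last listed bin (9.98%). The bins were chosen by position alone, but the part of the arm was chosen with earlier results of these data known. Lists of bins with different MNase accessibility (MACC) were given for each of the 3 pairs of cell lines. A list entry was found for 929 of the 46349 bins (2.00%), and 45420 had none. In the whole series 7543 of the 464488 bins had an entry.

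The lists come from MNase-titration-seq of *Drosophila* S2 cells, a line derived from embryos. The 3 lines compared are S2 cells that stably express a SAM polymerization defective mutant of polyhomeotic (PH-ML, PH-mut in the labels), S2 cells that stably express wild type PH (PH-WT), and S2 cells without a construct. Both constructs are overexpressed from an inducible promoter in cells that keep their endogenous *ph-p* and *ph-d* genes. The paper describes copper induction for the expression of either construct. It does not say whether S2 cells without a construct were also given copper. There are 30 libraries, 10 for every line, which cover 5 amounts of MNase in 2 experiments (1.65, 6.25, 25, 100 and 400 in the labels). Each construct is represented by a single line, and the sources used here do not say whether a line is a clone, so a difference between cultures and an effect of the construct cannot be told apart.

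PH is a subunit of Polycomb Repressive Complex 1 (PRC1), which maintains the silent state of developmental genes. Its SAM domain joins PH molecules head to tail, and this polymerization clusters PRC1 in the nucleus and holds distant chromatin regions together. In S2 cells Polycomb proteins are known for their binding at the Bithorax and Antennapedia complexes, which lie on 3R proximal to the part described here, whereas the Enhancer of split complex and the NK homeobox genes *tinman* and *bagpipe* belong to its distal part. Digesting chromatin with increasing amounts of MNase sets free more and more nucleosomes, and MACC summarizes for a bin how its read frequency changes along this titration. Higher MACC stands for more accessible nucleosomes.

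For each bin the lists give only its position and the cell line with the higher MACC. A bin where MACC was called higher in PH-ML than S2 is written PH-ML > S2, and the other directions are written in the same way. They hold no MACC score, no p-value and no value per library, so the spread between the 2 experiments is not known and no test across cultures could be made. Depth per library is unknown as well. The 95% Wilson interval beside a share covers counting error only, and it is too narrow where neighboring bins move together. As the 3 comparisons use the same libraries in pairs, a bin with an extreme value in 1 line can enter 2 lists at once. Their values are therefore set side by side and not used to support each other. No genome or annotation of dm3 was used here, so bins are given by position, and neither a gene nor a sequence is assigned to them.

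For PH-ML–expressing cells against S2 cells, few bins of distal 3R were listed as different in accessibility, and they were listed in both directions. Of the 46349 bins, 111 were listed (0.239%, against 0.174% of all bins of the series). MACC was higher in PH-ML at 67 bins (0.145%, against 0.129% in the series) and higher in S2 at 44 bins (0.0949%, against 0.0452% in the series). The share higher in PH-ML was thus 60.4% (51.1% to 69.0%). When bins within 1 kb were merged, 33 places were higher in PH-ML and 32 in S2 (50.8%), so the majority depended on clustered bins. In the rest of 3R the share of listed bins higher in PH-ML was 79.8% (70.0% to 87.0%) of 84 bins. In the series outside distal 3R it was 76.3% (73.0% to 79.3%) of 699 bins. By arm it was 61.6% of 86 bins on 2R, 75% on 3L, 78.6% on X, 85.8% on 2L and 90.5% on chromosome 4. The share on 2R was thus close to that of distal 3R. Distal 3R held 11.2% of the 600 bins of the series with higher MACC in PH-ML but 21.0% of the 210 bins with higher MACC in S2.

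In the comparison of PH-WT–expressing cells with S2 cells the larger group was the opposite one. The list held 137 bins of distal 3R (0.296%, against 0.305% of all bins). MACC was higher in PH-WT at 50 bins (0.108%, against 0.0721% in the series) and higher in S2 at 87 bins (0.188%, against 0.233% in the series). The share higher in PH-WT was 36.5% (28.9% to 44.8%), beside 15.6% (10.7% to 22.1%) of 154 bins in the rest of 3R. Outside distal 3R it was 22.3% (20.1% to 24.6%) of 1280 bins. By arm it was 36.5% of 211 bins on X, 24.8% on 2L, 23.3% on 3L and 13.4% on 2R. On chromosome 4 it was 0% of 5 bins. The share on X was thus close to that of distal 3R.

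When PH-ML was set against PH-WT, 868 bins of distal 3R were listed (1.87%, against 1.49% of all bins). MACC was higher in PH-ML at 385 bins (0.831%, against 0.788% in the series) and higher in PH-WT at 483 bins (1.04%, against 0.707% in the series). The share higher in PH-ML was 44.4% (41.1% to 47.7%). In the rest of 3R it was 50.4% (47.0% to 53.8%) of 832 bins, and outside distal 3R it was 53.9% (52.6% to 55.1%) of 6074 bins. By arm it was 42.4% of 1016 bins on 2R, 49.3% on 3L, 55.4% on X, 57.6% on 2L and 90.5% on chromosome 4. The share on 2R was thus below that of distal 3R. None of these differences between regions was tested, because the bins are clustered and are not replicates.

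Listed bins were dense in a short piece of distal 3R. A stretch of 400 kb from 25400001 to 25800000 makes up 2.88% of the bins of distal 3R. Of the listed bins of either direction it held 32.4% for PH-ML against S2, 24.8% for PH-WT against S2 and 22.2% for PH-ML against PH-WT. By direction it held 33 of the 44 bins with S2 > PH-ML and 25 of the 50 with PH-WT > S2. It held 157 of the 483 bins with PH-WT > PH-ML, and the other 326 lay elsewhere on distal 3R. Without this stretch, which was chosen after its values were seen, 85.3% (75.6% to 91.6%) of 75 bins had PH-ML > S2. For PH-WT against S2 the share without it was 24.3% (17.0% to 33.4%) of 103 bins. For PH-ML against PH-WT it was 51.7% (47.9% to 55.5%) of 675 bins, so that the larger group changed from PH-WT to PH-ML. The share of bins listed outside the stretch was 0.167%, 0.229% and 1.50% for the 3 comparisons.

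**Figure D1:**
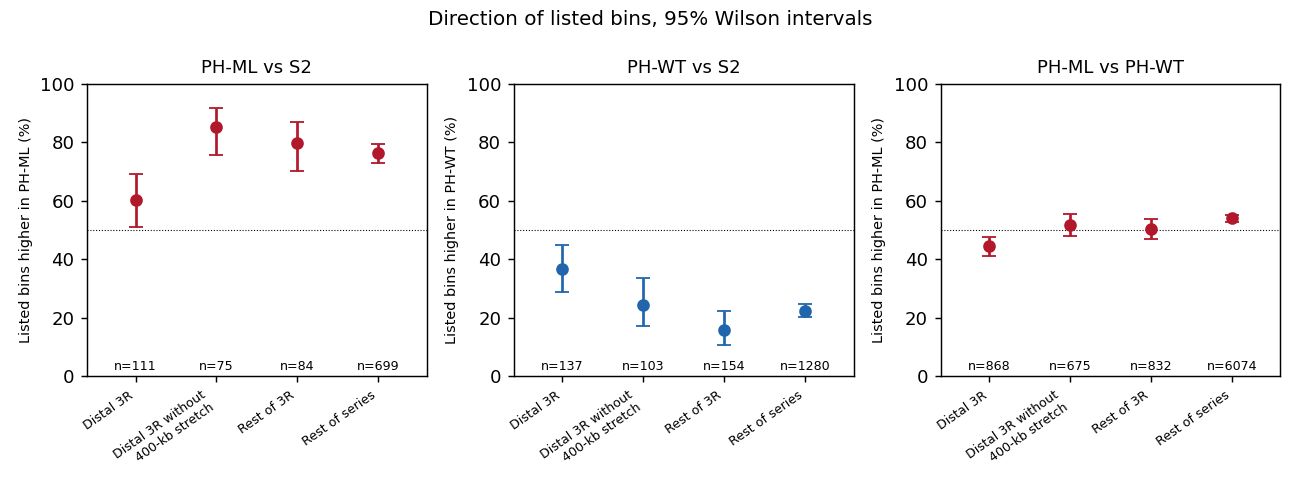
Share of listed bins with higher MACC in the line named first (y axis, percent) for the 3 comparisons, with 95% Wilson intervals and the number of listed bins below each point. Groups on the x axis are distal 3R, distal 3R without the 400-kb stretch, the rest of 3R and the rest of the series. Without the stretch the shares are 85.3%, 24.3% and 51.7%, and with it they are 60.4%, 36.5% and 44.4%. Other arms are pooled in the rest of the series and not shown singly.

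Along the arm the listed bins were unevenly spread. In 14 successive windows of 1 Mb, the last of them shorter, PH-ML against S2 had between 0 and 40 bins, PH-WT against S2 between 0 and 46, and PH-ML against PH-WT between 19 and 241. Bins with PH-ML > S2 outnumbered the opposite direction in 10 windows, were fewer in 1 and equal in 3, all of them without a listed bin. The exception was the window from 25 to 26 Mb, with 5 bins of PH-ML > S2 and 35 of S2 > PH-ML. For PH-WT against S2, bins higher in S2 were more frequent in 8 windows and bins higher in PH-WT in 4. The window from 25 to 26 Mb was again the fullest, with 27 bins of PH-WT > S2 and 19 of S2 > PH-WT. For PH-ML against PH-WT, the first line had more bins in 8 windows and the second in 6, and the window from 25 to 26 Mb held 51 and 190.

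The positions of the 4 directions against S2 differed accordingly. The median position was 19.9 Mb for bins with PH-ML > S2, with quartiles at 17.1 and 26 Mb, and 25.6 Mb for bins with S2 > PH-ML, with quartiles at 25.5 and 25.6 Mb. Beyond 25 Mb lay 22 of the 67 bins of the first group and 40 of the 44 bins of the second. For PH-WT against S2, 42 of the 50 bins higher in PH-WT lay beyond 25 Mb and 32 of the 87 bins higher in S2 did. Proximal to 25 Mb the lists thus held 45 bins of PH-ML > S2 and 4 of S2 > PH-ML, and 8 bins of PH-WT > S2 and 55 of S2 > PH-WT.

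**Figure D2:**
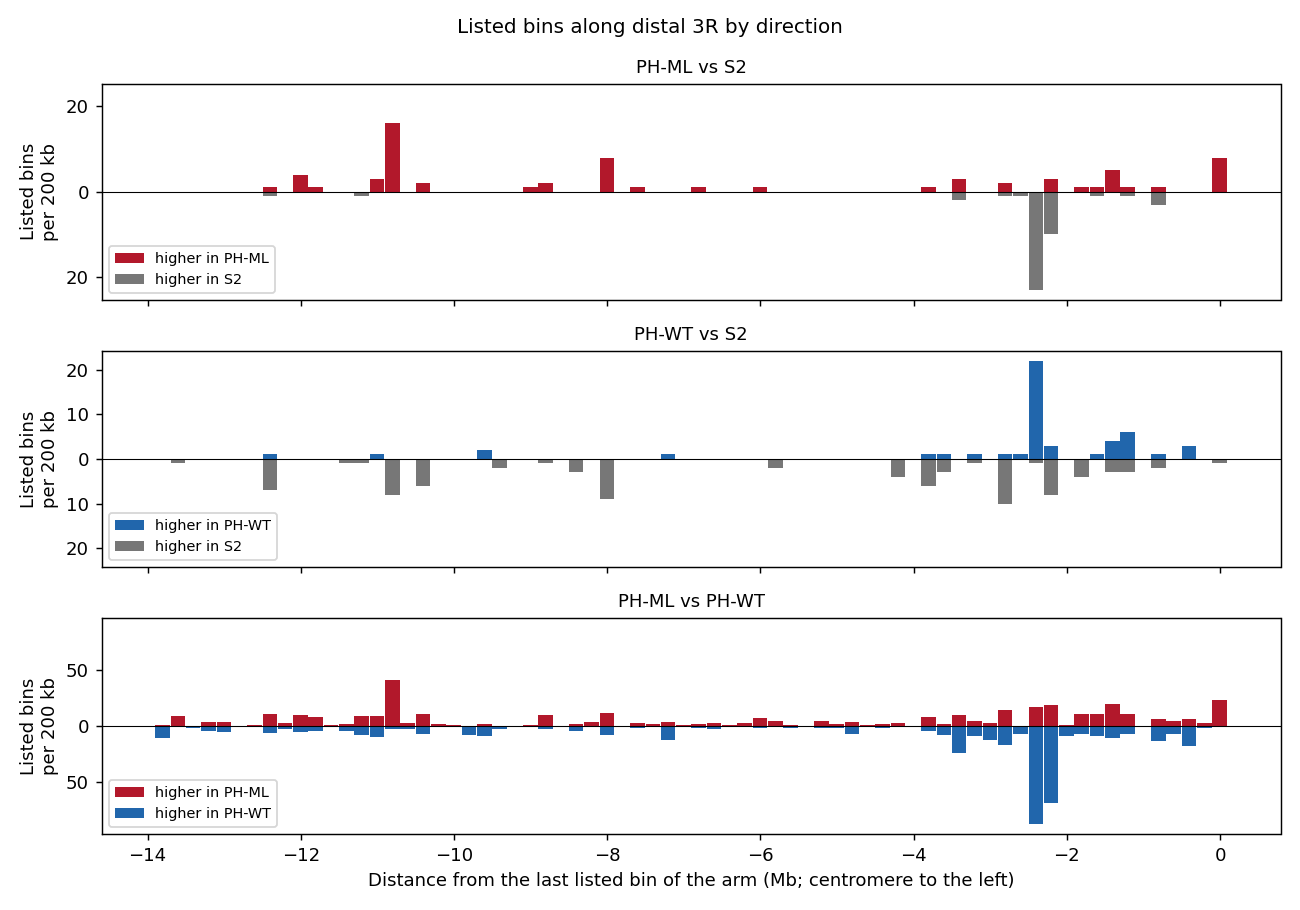
Number of listed bins in 70 windows of 200 kb (y axis, bins higher in the first line upwards and in the second line downwards) against the distance from the last listed bin of 3R in Mb (x axis, centromere to the left), for the 3 comparisons. The longest bar of each panel lies in the window from 25400001 to 25600000, with 23 bins of S2 > PH-ML, 22 of PH-WT > S2 and 88 of PH-WT > PH-ML.

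To describe domains, listed bins of 1 comparison and 1 direction were chained while their starts were at most 50 kb apart and no bin of the other direction lay between them, and chains of 5 or more bins were kept. There were 4 domains of PH-ML > S2, which held 37 of the 67 bins, and 2 domains of S2 > PH-ML, which held 31 of the 44 bins. There were 2 domains of PH-WT > S2 with 24 of the 50 bins and 5 domains of S2 > PH-WT with 39 of the 87 bins. Between the PH-expressing lines, 21 domains of PH-ML > PH-WT held 177 of 385 bins and 30 domains of PH-WT > PH-ML held 276 of 483 bins. With a minimum of 8 bins these numbers of domains became 6 and 12, and those of PH-WT > S2 and S2 > PH-WT became 1 and 3. When chains were not ended by the other direction, there were 24 domains of PH-ML > PH-WT and 23 of PH-WT > PH-ML. The larger number of PH-WT > PH-ML domains thus depended on this rule. The domains with PH-ML > S2 were compact, with spans from 2.70 to 15 kb, whereas those with S2 > PH-ML spanned 41.7 and 88.8 kb with fewer of their bins listed.

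The domain with the most bins with PH-ML > S2 covered 16 bins from 17122501 to 17137500, which is 32.0% of the bins in its span. It contains the longest run of adjacent bins of this direction, 7 bins from 17125201 to 17127300. PH-WT against S2 had a domain higher in S2 at its proximal side, where all 8 bins from 17122801 to 17125200 were listed without a gap. PH-ML against PH-WT had 36 bins higher in PH-ML from 17121601 to 17142300 and none higher in PH-WT. Of the 36 bins listed in this place, 4 were called in all 3 comparisons, with MACC highest in PH-ML and lowest in PH-WT. A further 12 were higher in PH-ML than in either other line, 4 were lower in PH-WT than in either other line, and 16 were listed only between PH-ML and PH-WT. The bins low in PH-WT thus lay at the proximal edge, and those high in PH-ML extended beyond them.

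A more compact place of the same kind lay from 19880401 to 19883100. All 9 of its bins had S2 > PH-WT, and 8 of them had PH-ML > S2, in runs of 5 bins from 19881601 to 19883100 and 3 bins from 19880401 to 19881300. Between PH-ML and PH-WT, a run of 10 bins from 19880401 to 19883400 was higher in PH-ML, and the domain reached with 11 bins to 19892700. At 8 bins the order PH-ML > S2 > PH-WT was called in all 3 comparisons.

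At the end of the arm only PH-ML stood out. From 27898801 to 27904800, the last bin of the lists on 3R, 8 bins had PH-ML > S2 and none had S2 > PH-ML. In the same span PH-WT against S2 had no listed bin. These 8 bins started at 27898801, 27899701, 27900601, 27900901, 27901801, 27902701, 27903601 and 27904501, a largely even spacing. No sequence was assigned to them, so what lies behind this spacing was not tested. PH-ML against PH-WT had a domain of 18 bins higher in PH-ML from 27872401 to 27904800. In the last 100 kb, PH-ML against PH-WT had 23 bins in favor of PH-ML and 1 in favor of PH-WT, and PH-WT against S2 had 1 bin, which was higher in S2.

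A further place differed from bin to bin within 16.8 kb, from 26591401 to 26608200. PH-ML against S2 had a domain of 5 bins higher in PH-ML from 26597401 to 26602500, and PH-WT against S2 had a domain of 5 bins higher in PH-WT from 26598001 to 26601900, so that here both lines had bins above S2. No bin was called above S2 in both lines, here or elsewhere on distal 3R. Between them the direction changed several times: the bins at 26597401, 26597701, 26598601 and 26598901 had PH-ML > PH-WT, those at 26599501, 26599801 and 26600101 were higher in PH-WT, and the domain from 26601301 to 26605800 had 6 bins higher in PH-ML. The 2 longest runs with PH-WT > S2 on distal 3R, of 3 bins each, were found here, from 26599801 to 26600700 and from 26607301 to 26608200. In the whole place there were 10 bins of PH-ML > PH-WT and 9 of PH-WT > PH-ML.

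**Figure D3:**
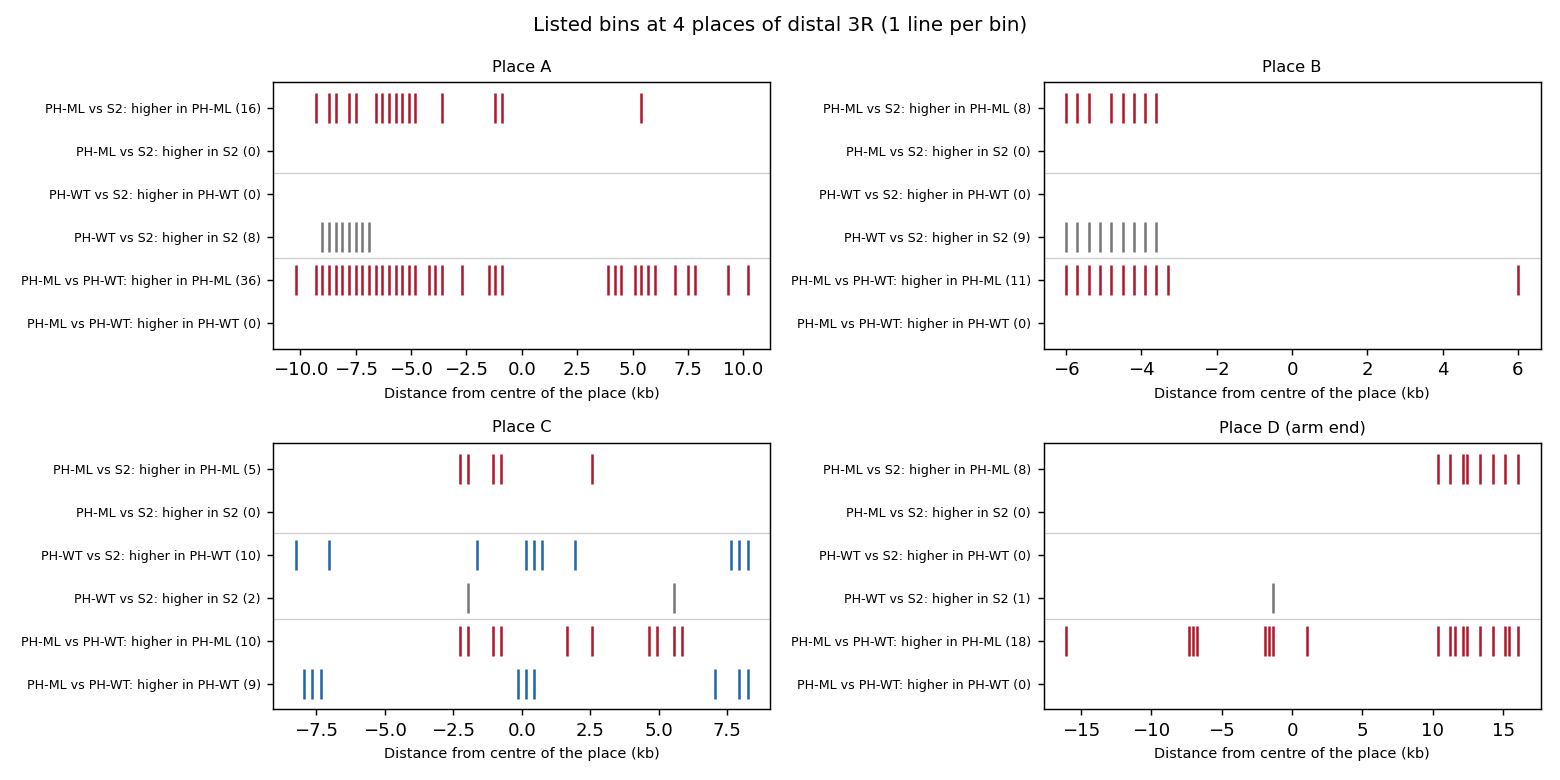
Every listed bin (1 vertical line each) at 4 places, by comparison and direction from top to bottom, against the distance from the centre of the place in kb (x axis); the number of bins is given beside each row. A is 17121601 to 17142300, B is 19880401 to 19892700, C is 26591401 to 26608200 and D is 27872401 to 27904800; A, B and D have 36, 11 and 18 bins with PH-ML > PH-WT and none in the opposite direction, whereas C has 10 and 9.

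In the stretch from 25400001 to 25800000 most bins listed for PH-ML had the opposite direction, with low MACC in PH-ML. High MACC in PH-WT relative to S2 was listed mainly in its proximal 200 kb. Of its 1333 bins, 3 had PH-ML > S2 and 33 had S2 > PH-ML. Of the 34 bins listed for PH-WT against S2, 25 had PH-WT > S2 and 9 had S2 > PH-WT. From 25400001 to 25600000 these were 22 and 1, but from 25600001 to 25800000 they were 3 and 8. Between the PH-expressing lines 36 bins had PH-ML > PH-WT and 157 had PH-WT > PH-ML, and 14.5% of all bins of the stretch were listed in this comparison. Both domains of distal 3R that had S2 > PH-ML lay here. The first had 23 bins from 25509301 to 25598100 and the other 8 bins from 25621801 to 25663500. Here also lay the domain of 19 bins with PH-WT > S2, from 25509301 to 25577400. Of the 30 domains with PH-WT > PH-ML, 10 lay in the stretch, among them the 5 with the most bins. These had 28 bins from 25620601 to 25639800, 27 from 25542001 to 25558500, 21 from 25561501 to 25578600, 18 from 25641001 to 25655400 and 15 from 25445401 to 25512000.

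The direction was not the same throughout the stretch. In the first block, 133.2 kb from 25445401 to 25578600, 0 bins had PH-ML > S2 and 21 had S2 > PH-ML, while 19 bins had PH-WT > S2 and 0 had S2 > PH-WT. In the same block 7 bins had PH-ML > PH-WT and 83 had PH-WT > PH-ML. The following 35.7 kb, from 25579201 to 25614900, had bins of both directions in each comparison. There 19 bins had PH-ML > PH-WT and 9 had PH-WT > PH-ML. Against S2, 2 bins had PH-ML > S2 and 3 had S2 > PH-ML, and 3 bins had PH-WT > S2 and 5 had S2 > PH-WT. In the third block, 66.0 kb from 25620601 to 25686600, 5 bins had PH-ML > PH-WT and 60 had PH-WT > PH-ML, and 8 bins had S2 > PH-ML with none in the other direction. PH-WT against S2 had only 1 bin of each direction in that block, so that a low MACC in PH-ML was listed there without a high MACC in PH-WT relative to S2. The bounds of these blocks were drawn after the directions were seen.

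**Figure D4:**
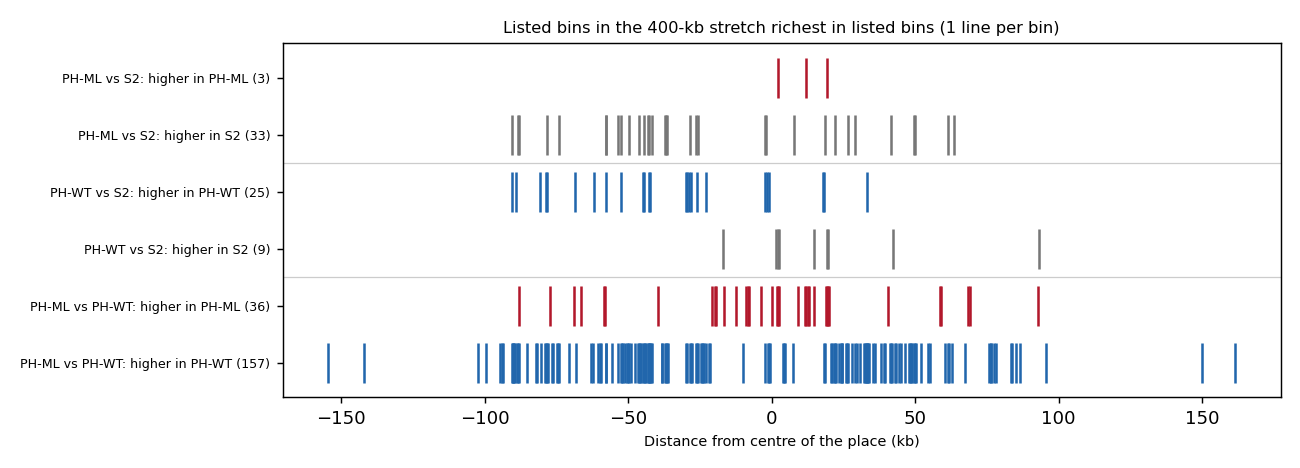
Every listed bin (1 vertical line each) in the 400-kb stretch from 25400001 to 25800000, by comparison and direction from top to bottom, against the distance from its centre in kb (x axis). Of the 157 bins with PH-WT > PH-ML, 83 lie in the first block and 60 in the third, and bins with PH-WT > S2 (25) lie mostly in the first.

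Runs of adjacent bins in the stretch were shorter than those at 17122501 and 19880401. The longest runs with PH-WT > PH-ML had 7 bins (25632001 to 25634100), 6 bins (25556701 to 25558500) and 5 bins (25509301 to 25510800), whereas the longest runs with PH-ML > PH-WT had 16 bins (17122501 to 17127300), 10 bins (19880401 to 19883400) and 4 bins (15936001 to 15937200). The longest run with S2 > PH-ML had 3 bins, from 25562701 to 25563600. In the series, 605 windows of 200 kb cover X, 4 and the major arms of chromosomes 2 and 3 up to their last listed bins. The window from 25400001 to 25600000 held the most bins of all of them for S2 over PH-ML (23, with at most 10 in any window outside distal 3R) and for PH-WT over PH-ML (88, with at most 33). For PH-WT over S2 it ranked 2 in the series, with 22 bins beside 26 in a window on X. The fullest window for PH-ML over S2, from 17000001 to 17200000 with 16 bins, ranked 4 in the series, where a window on 3L held 46.

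Of the remaining domains against S2, 3 had S2 > PH-WT with little or no difference listed between PH-ML and S2. They held 6 bins from 17588401 to 17592900, 6 bins from 24001201 to 24006300 and 10 bins from 25077301 to 25117800. In the first 2 of them no bin was listed for PH-ML against S2, and PH-ML against PH-WT had 1 and 3 bins, all higher in PH-ML. In the third, PH-ML against S2 had 1 bin in each direction, and PH-ML against PH-WT had 8 bins in favor of PH-ML and 6 in favor of PH-WT. Accordingly, low MACC in PH-WT was listed both with high MACC in PH-ML, as at 17122801 and 19880401, and without it. Among the domains with PH-ML > PH-WT, the 2 that followed those at 17121601, 27872401 and 19880401 in size had 10 bins each, from 15892201 to 15940500 and from 26102701 to 26213700. The first contained 4 bins with PH-ML > S2 and no bin listed for PH-WT against S2.

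When each of the 929 listed bins was given by its state in the 3 comparisons, the largest groups were bins with PH-WT > PH-ML as their only entry (417, or 44.9%) and bins with PH-ML > PH-WT as theirs (288, or 31.0%). The same groups made up 38.1% and 34.9% of the 7543 listed bins of the series. Among bins where 1 line differed from both others and the others were not listed against each other, PH-ML was the high line at 51 (5.49%, against 5.79% in the series) and the low line at 32 (3.44%, against 2.00%). PH-WT was the high line at 26 of them (2.80%, against 2.90%) and the low line at 30 (3.23%, against 5.94%). With the fully ordered bins added, whose series shares are given below, PH-ML was above both others at 67 bins and below both at 40. PH-WT was above both others at 34 bins and below both at 46. A further 41 bins had S2 > PH-WT as their only entry (4.41%, against 6.48% in the series). Only PH-WT > S2 was listed at 16 bins (1.72%, against 0.941%) and only S2 > PH-ML at 4 (0.431%, against 0.252%).

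The 3 lines were fully ordered at 24 bins. PH-ML > S2 > PH-WT was called at 16 bins (1.72% of listed bins, against 1.86% in the series), of which 8 lay at 19880401 to 19883100 and 4 at 17123101 to 17124600. The reverse order was called at 8 bins (0.861%, against 0.464%), of which 7 lay between 25509301 and 25619400 and 1 at 27046501. No bin of distal 3R was called on the same side of S2 in both PH-expressing lines. In the whole series only 10 bins were called higher and 5 lower in both. Distal 3R makes up 9.98% of the bins of the series, so this absence is not shown to be particular to it. Bins on all 3 lists fell into 8 places when those within 20 kb were joined. Of these, 7 held a single order. The other, from 25597501 to 25619400, held 2 bins with PH-ML highest and 1 bin with PH-WT highest.

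Close neighbors mostly had the same direction. Between the PH-expressing lines, 237 of 241 pairs of adjacent listed bins had the same direction (98.3%). The share was 78.0% of 127 pairs with starts over 300 bp and up to 1 kb apart, 60.5% of 258 pairs over 1 and up to 10 kb, 52.8% of 159 pairs up to 50 kb and 50% of 82 pairs beyond 50 kb. Against S2, the adjacent pairs had the same direction in 26 of 26 cases for PH-ML and in 40 of 41 cases for PH-WT. From 1 to 10 kb it was 80.0% of 30 pairs for PH-ML against S2 and 75% of 36 pairs for PH-WT against S2. For PH-ML against S2 the share was 55.6% of 9 pairs from 10 to 50 kb and 73.1% of 26 pairs beyond 50 kb, and for PH-WT against S2 it was 63.6% of 11 pairs and 47.2% of 36 pairs. Most runs were nevertheless a single bin, with single bins making up from 71.4% of the runs with S2 > PH-WT to 86.8% of the runs with S2 > PH-ML. Adjacent bins are not independent, so these pairs are given as a description only.

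**Figure D5:**
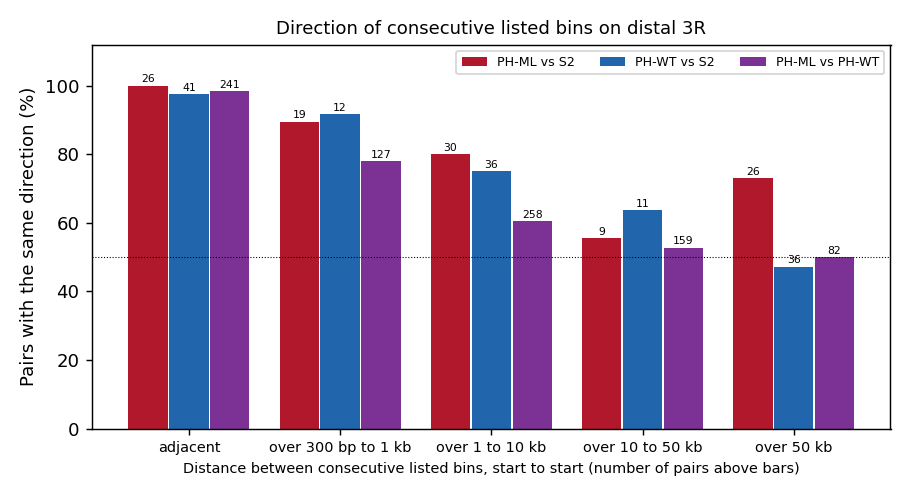
Share of consecutive listed bins of distal 3R with the same direction (y axis, percent) by the distance between their starts (x axis), for the 3 comparisons; the number of pairs stands above each bar and the dotted line is at 50%. The share is 98.3% for adjacent bins and 50% beyond 50 kb for PH-ML against PH-WT, and beyond 50 kb it is 73.1% for PH-ML against S2 and 47.2% for PH-WT against S2.

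In fixed windows of 200 kb, a direction was assigned where at least 3 bins of a comparison were listed and at least 75% of them agreed. Of 70 windows, PH-ML against S2 had 6 with PH-ML > S2, 3 with S2 > PH-ML and 2 mixed, with fewer than 3 bins in the other 59. Shifting the windows by 100 kb left 1 with S2 > PH-ML. PH-WT against S2 had 2 with PH-WT > S2, 10 with S2 > PH-WT and 4 mixed. No window had PH-WT > S2 when the windows were shifted by 100 kb or were 500 kb long, and 1 had it with windows of 100 kb or a minimum of 5 bins. PH-ML against PH-WT had 9 with PH-ML > PH-WT, 12 with PH-WT > PH-ML and 34 mixed. With windows of 100 kb 18 and 21 had these directions, and with windows shifted by 100 kb 12 and 12 did. Opposite directions against S2 in the same window were found 3 times. The windows from 17000001 and 19800001 had PH-ML > S2 and S2 > PH-WT, with 16 and 8 bins for PH-ML over S2 and 8 and 9 bins for S2 over PH-WT. The window from 25400001 had 23 bins for S2 over PH-ML and 22 for PH-WT over S2.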

How the data were processed

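MACC was derived from 30 MNase-seq libraries of 3 *Drosophila* lines, which were grouped by the cell line, MNase amount and replicate that their titles name. Labels and protocol text differ on the lowest amount. The authors used Bowtie to align read pairs to dm3 and kept unique hits. In 300-bp bins they regressed read frequencies, scaled to library size, on the titration and removed the dependence of the slope on GC. The deposited lists hold the bins called different between 2 lines and name no experiment. Whether the call pooled both experiments is not stated, and its test and threshold are not given in the sources used here. How many bins could be tested is not known, so shares are relative to all bins up to the last listed bin. Depth per library is unknown.

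Direction was read from the 3 lists with both directions, and the 1116 entries on distal 3R were compared with the 5 lists of 1 direction. No list of 1 direction was given for PH-ML > PH-WT. Its 385 entries could thus be checked only by their absence from the list of PH-WT > PH-ML. Bins were counted, merged and chained with Python 3.11.15, numpy 2.4.6 and scipy 1.17.1, and the chaining was tested on simulated data. Named places are every domain against S2, the 5 domains with the most bins per direction between PH-ML and PH-WT, the 3 longest runs and the 3 fullest windows of 200 kb per comparison and direction, bins on all 3 lists, and the last 100 kb; other places were chosen after their values were seen. The part of the arm and these rules were chosen with earlier results of these data known. The gene table at hand is of another release than dm3 and was not used. Nucleosome occupancy was not analysed here.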

Additional observations from a re-analysis of the deposited data

How the results depend on the processing

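No paired analysis was possible because the lists name no experiment and give no value per library. For the same reason no library could be left out. Direction read from the lists of 1 direction, merging of adjacent bins, a start above 13 or 15 Mb and leaving out the last 100 kb kept every share within its interval and every number of listed places within 1.5 times. For PH-ML against PH-WT the first of these alternatives was partly fixed in advance, because PH-ML > PH-WT has no list of its own. Merging bins within 1 kb gave 65 places for PH-ML against S2, 83 for PH-WT against S2 and 509 for PH-ML against PH-WT. For PH-ML against S2 50.8% of places were then higher in PH-ML (33 against 32), so PH-ML no longer had a clear majority. Leaving out the fullest window of 200 kb gave 76.1% higher in PH-ML than in S2, 24.6% higher in PH-WT than in S2 and 48.2% with PH-ML above PH-WT. Leaving out the 400-kb stretch, an alternative chosen after seeing the data, gave 85.3% and 24.3%, and turned the last share to 51.7%. It left 0 domains of S2 > PH-ML, 1 of PH-WT > S2, 19 of PH-ML > PH-WT and 20 of PH-WT > PH-ML. Domains of at least 3 bins numbered 4 for PH-WT over S2, 12 for S2 over PH-WT, 44 for PH-ML over PH-WT and 50 for PH-WT over PH-ML, and domains of at least 8 bins numbered 1, 3, 6 and 12. Without an end at bins of the other direction, the domains higher in S2 than in PH-ML joined into 1. Those between the PH-expressing lines then numbered 24 for PH-ML over PH-WT and 23 for PH-WT over PH-ML, so that PH-WT no longer had more. The number of windows with a direction depended on their size. With 100 kb there were 18 for PH-ML over PH-WT and 21 for PH-WT over PH-ML, and 1 higher in PH-WT than in S2. With 500 kb these numbers were 3, 2 and 0. Shifting the windows by 100 kb gave 1 for S2 over PH-ML, 0 for PH-WT over S2, and 12 for each direction between PH-ML and PH-WT. Requiring 5 bins gave 1 higher in PH-WT than in S2 and 6 higher in S2 than in PH-WT. Bins of opposite direction against S2 numbered 25 with PH-ML high and 19 with PH-WT high when those within 1 kb were counted as the same place. The causes of these differences were not tested beyond the construction of each alternative. The depth behind a bin is unknown, so an unlisted bin is not shown to be unchanged.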

Other observations

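Large pieces of distal 3R had few or no bins listed against S2. Of 70 windows of 200 kb, 45 had no bin listed for PH-ML against S2 and 41 had none for PH-WT against S2. For PH-ML against PH-WT 2 windows were empty, from 18600001 to 18800000 and from 22400001 to 22600000. Between 20 and 24 Mb the lists held 3 bins of PH-ML > S2 and 0 of S2 > PH-ML, and 1 bin of PH-WT > S2 and 6 of S2 > PH-WT, whereas 49 bins had PH-ML > PH-WT and 42 had PH-WT > PH-ML. The same counts were not made for other arms, so windows with few listed bins are not shown to be particular to distal 3R. Bins listed against S2 were rare in the whole series, with 0.174% for PH-ML and 0.305% for PH-WT. In distal 3R these shares were 0.2395% and 0.2956%. Whether bins in these windows were measured as deeply as others is unknown.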
